A study of Sus scrofa domesticus with 2 samples.

Results

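Of a list of 8 immediate early stress response genes, FOS, FOSB, JUN, JUNB, EGR1, ATF3, IER2 and IER3, chosen by name, 7 were among the 22804 genes counted in both libraries. JUN was not analysed here. The samples were cultured endothelial cells (ECs) grown from domestic pig (Sus scrofa domesticus), 1 library from the lung and 1 from the aorta near it, with no treatment given in the labels. Both tissues were digested with collagenase for 30 min at 37 °C, and the cells were grown in a medium with 10% fetal calf serum. Single-cell RNA sequencing by the 10x Genomics 3′ method counted each captured molecule once, by its unique molecular identifier (UMI). With 1 library for each tissue there was no replicate, no test between groups was possible, and the 95% intervals in parentheses cover counting error only.

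Immediate early genes are transcribed within minutes of a stimulus, from factors that the cell already holds. FOS, FOSB and JUNB encode subunits of the AP-1 transcription factor, EGR1 encodes a zinc finger factor, ATF3 encodes a stress-induced factor of the ATF/CREB family, and IER2 and IER3 encode small proteins induced by growth factors and stress. In ECs, which line blood vessels, such genes respond to serum, cytokines, shear stress and the handling of tissue. Their transcripts and those of their partners are usually short-lived, because decay factors and phosphatases of the same response bring them down again.

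The lung library held 57213236 UMIs in 5946 cells and the aorta library 46080859 UMIs in 1185 cells. After cells with 200 or fewer detected genes or with 30% or more mitochondrial UMIs had been left out, 5709 lung cells with a median of 9463 UMIs and 955 aorta cells with a median of 52080 UMIs remained. Of the barcodes of these cells, 3 occurred in both libraries. Clusters that kept most of the endothelial markers, and were not set aside as too shallow, held 4956 lung cells and 634 aorta cells. These are called ECs here, although their VWF and KDR, usual endothelial markers, were near 0: VWF stood at 0.372 UMIs per 1000000 UMIs of the class (CPM) in the lung and at 0.199 CPM in the aorta. PECAM1, an endothelial adhesion molecule, stood at 1592 CPM and 1292 CPM. Clusters with raised COL1A1 and COL1A2, the genes of type I collagen, held 337 lung cells and 139 aorta cells and are called collagen-high. They also held ACTA2, a smooth muscle actin, at 1154 and 1528 CPM and CSPG4, a mural marker, at 174 and 183 CPM in the lung and aorta. MYH11, a smooth muscle myosin, stood at only 0.256 and 0.574 CPM. Of the fibroblast markers, LUM stood at 0.769 and 12.2 CPM, but COL3A1 at 511 and 409 CPM and COL6A1 at 778 and 665 CPM. In each library 5 of 8 mural and smooth muscle markers and 3 of 6 fibroblast markers reached 20 CPM, so these lists did not settle which cells they were. Another 92 lung cells, of a cluster with raised immune markers, are called immune-like, although only 18.5% of them had a UMI of the immune marker PTPRC. Left without a name were 324 lung and 182 aorta cells, with median depths of 2843.5 and 3456.5 UMIs. Some of these unnamed clusters also kept most of the endothelial markers, but their median UMI counts were more than 3-fold below that of their library and no endothelial marker was among their leading genes. Members, related genes and markers had been taken out of the genes used for clustering.

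The upstream sequences of 4 members are given here. The results below turn on EGR1, ATF3 and IER3. In the windows described here, IER2 alone held a CArG box, the site bound by serum response factor. The RefSeq models on Sscrofa11.1 gave 9 transcript starts for 6 of the measured members, 4 of them for ATF3. The genes lie at chr7:98449508-98451971 (FOS, plus strand), chr6:51836780-51844531 (FOSB, plus), chr2:66214086-66219435 (JUNB, minus), chr2:140440829-140445302 (EGR1, plus), chr9:130772259-130829678 (ATF3, minus), chr2:65909638-65912491 (IER2, minus) and chr7:23265560-23266905 (IER3, minus). FOS was left out of the upstream sequences because its model begins at the coding start and gives no transcript start before it. The starts used lay 3798 (JUNB), 1497 (FOSB), 1206 (IER2), 888 (EGR1) and 37 (IER3) bases before the coding start, and 18 for the most downstream ATF3 start. Whether these annotated starts are the ones used in these cells was not tested, so a window may miss the promoter. Each sequence is the 250 bases before a transcript start, 5′ to 3′ on the strand of the gene, with matches to the 6 motifs searched in capitals. The windows are chr2:140440579-140440828 on the plus strand for EGR1, chr9:130785507-130785756 on the minus strand for the most downstream ATF3 start, chr7:23266906-23267155 on the minus strand for IER3 and chr2:65912492-65912741 on the minus strand for IER2.
EGR1: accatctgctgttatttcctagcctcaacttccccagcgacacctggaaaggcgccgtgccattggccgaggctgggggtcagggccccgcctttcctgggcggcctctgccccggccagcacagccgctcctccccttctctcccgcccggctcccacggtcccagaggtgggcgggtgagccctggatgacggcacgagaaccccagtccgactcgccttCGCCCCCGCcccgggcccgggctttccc
ATF3: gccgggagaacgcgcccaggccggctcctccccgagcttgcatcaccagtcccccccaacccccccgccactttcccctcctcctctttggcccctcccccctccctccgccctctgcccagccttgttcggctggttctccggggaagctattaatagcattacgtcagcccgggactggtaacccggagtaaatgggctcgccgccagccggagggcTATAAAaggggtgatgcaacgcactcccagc
IER3: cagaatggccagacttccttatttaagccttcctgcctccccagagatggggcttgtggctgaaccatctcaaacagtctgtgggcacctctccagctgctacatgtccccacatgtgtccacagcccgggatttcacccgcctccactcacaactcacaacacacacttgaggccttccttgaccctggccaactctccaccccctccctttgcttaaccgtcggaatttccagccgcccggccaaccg
IER2: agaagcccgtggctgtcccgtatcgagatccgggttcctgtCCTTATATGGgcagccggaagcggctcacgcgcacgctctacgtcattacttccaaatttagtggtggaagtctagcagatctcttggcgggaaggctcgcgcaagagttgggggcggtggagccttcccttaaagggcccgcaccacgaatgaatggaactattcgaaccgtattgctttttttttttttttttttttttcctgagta

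The search covered both strands for the CArG box, the CRE TGACGTCA, the AP-1 site TGANTCA, the EGR site GCGNGGGCG, the NF-kB site and the TATA box TATAAA. A CArG box stood in the IER2 window, 209 to 200 bases before the start, and in 1.31% of the 19556 windows of all genes. The EGR1 window held GCGNGGGCG on the opposite strand, 28 to 20 bases before the start, a motif found in 9.5% of all windows. The window of the most downstream ATF3 start held TATAAA from 31 to 26 bases before the start, against 9.77% of all windows. The FOSB window also had TATAAA, while JUNB and IER3 had none of the 6 motifs in this window. TGACGTCA, TGANTCA and the NF-kB site were in no member's window, and in 1.7%, 5.27% and 14.0% of all windows. A match is a description of the letters, and no match says only that they are not in this window.

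IER3, which encodes a regulator of cell survival, was the most captured member in ECs and in collagen-high cells of both libraries. It stood at 783 CPM (776 to 791) in lung ECs and at 919 CPM (909 to 929) in aorta ECs. In collagen-high cells it stood at 402 CPM (382 to 422) in the lung and 393 CPM (380 to 406) in the aorta. Because 3′ counts hold 1 tag for each molecule, these levels were not divided by gene length. Next came ATF3, FOS and EGR1, between 59.6 and 185 CPM in the ECs. FOSB, JUNB and IER2 were rarely captured, between 0.794 and 3.99 CPM in the ECs.

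FOS stood at 111 CPM (108 to 114) in lung ECs and 148 CPM (144 to 152) in aorta ECs, and at 62.0 CPM (54.4 to 70.3) and 68.5 CPM (63.1 to 74.3) in collagen-high cells of the lung and aorta. FOSB, its close relative, stood at 3.99 and 3.89 CPM in ECs of the lung and aorta and at 3.07 and 3.44 CPM in collagen-high cells. JUNB, a dimer partner of FOS, stood at 3.86 and 3.75 CPM in ECs and at 2.31 and 2.41 CPM in collagen-high cells, in the same order. FOS was therefore lower in both collagen-high classes, whereas the FOSB and JUNB intervals of the classes overlapped in each library.

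EGR1 stood at 59.6 CPM (57.5 to 61.7) in lung ECs and 118 CPM (114 to 121) in aorta ECs. Its collagen-high levels were 25.6 CPM (20.8 to 31.2) in the lung and 27.3 CPM (24.0 to 31.0) in the aorta. ATF3 had the reverse order of tissues, with 185 CPM (181 to 188) in lung ECs, 161 CPM (157 to 165) in aorta ECs, 104 CPM (94.4 to 115) in lung collagen-high cells and 54.5 CPM (49.7 to 59.7) in aorta collagen-high cells. The EGR1 levels of the collagen-high classes overlapped, and those of the ECs did not. IER2 rested on 68 UMIs in lung ECs, 28 in aorta ECs and 4 in aorta collagen-high cells. In lung collagen-high cells it had 0 UMIs, which allows up to 0.769 CPM.

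**Figure D1:**
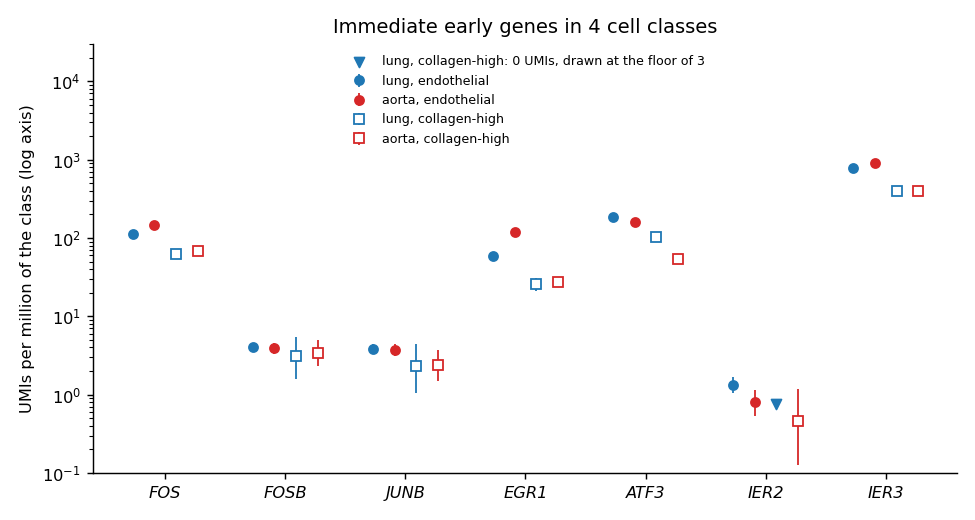
Level of the 7 measured members in 4 cell classes, in CPM on a log axis. Points are sums over the cells of 1 library, bars are exact Poisson 95% intervals, filled circles are ECs, open squares are collagen-high cells, and the triangle marks 0 UMIs drawn at the floor of 3. For FOS, EGR1, ATF3 and IER3 the squares lie below the circles in both libraries.

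Aorta cells were several times deeper than lung cells, so a random 5200 UMIs were drawn from each cell (thinning) before shares of cells with a UMI were set side by side. This left out 123 lung and 5 aorta ECs as too shallow, and 21 lung and 1 aorta collagen-high cells. IER3 was seen in 93.6% of thinned lung ECs and 94.9% of thinned aorta ECs, against 97.5% and 99.7% before thinning. It was seen in 71.8% and 73.2% of collagen-high cells of the lung and aorta. FOS was seen in 39.6% of lung and 44.8% of aorta ECs (56.8% and 89.1% unthinned) and in 25.0% and 29.0% of the collagen-high cells. EGR1 was seen in 24.3% of lung and 41.5% of aorta ECs (38.4% and 85.3% unthinned) and in 12.03% and 15.9% of the collagen-high cells. ATF3 was seen in 54.7% of lung and 48.8% of aorta ECs (71.1% and 91.6% unthinned) and in 35.8% and 19.6% of the collagen-high cells. For FOS, EGR1 and ATF3 the shares had the same order of classes as the CPM. For IER3 they did too, except that the collagen-high classes, close to each other on both scales, changed places.

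No cell class that should lack these genes was present, so class markers were read in the class that should lack them. Such values do not tell free RNA from mixed or misplaced cells. PECAM1 in collagen-high cells stood at 14.2 CPM in the aorta and 161 CPM in the lung, which is 1.10% and 10.1% of its EC level. A PECAM1 UMI was seen in 48.2% of the aorta and 36.2% of the lung collagen-high cells. These shares are unthinned, at median depths of 62295 and 10750 UMIs, and cannot be set side by side. COL1A1 in ECs stood at 0.497% of its collagen-high level in the aorta and 0.361% in the lung. FOS, EGR1, ATF3 and IER3 stood at between 0.232 and 0.565 of their EC level in the collagen-high cells. The part of free RNA or of mixed cells in these levels was not tested.

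The first comparison asked whether ECs of the lung and aorta held different levels of the members. EGR1 was 1.98-fold (1.88 to 2.07) higher in aorta ECs and FOS 1.33-fold (1.28 to 1.39) higher there. IER3 was 1.17-fold (1.16 to 1.19) higher in aorta ECs. ATF3 was 1.15-fold (1.11 to 1.19) higher in lung ECs. IER2 was 1.68-fold (1.06 to 2.70) higher in lung ECs, on few UMIs. The intervals of FOSB (0.824 to 1.29) and JUNB (0.822 to 1.29) for lung over aorta held 1.

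Of the 7 members 0 passed a 2-fold difference between the ECs, where 8.8% of the 11702 genes with at least 0.5 CPM on average did so in either direction. The median fold of the members, lung over aorta, was 1.03, beside a median log2 difference of -0.08 over all these genes. EGR1 lay just inside the 2-fold limit, and its ratio went from 0.506 to 0.457 where each cell was weighted alike and to 0.447 after thinning. It went to 0.262 where cells with 5000 or more genes were left out and the rest clustered anew, which gave 159 aorta ECs. The main clustering had 56 aorta ECs with fewer than 5000 genes, so that setting also called other cells ECs. ATF3 and IER3 turned direction, to ratios of 0.943 and 1.01, under that same setting. Tissue, animal, culture and depth cannot be told apart between 2 libraries.

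Depth moved with these levels, and its part in the difference was not tested beyond the values given here. In the 56 aorta ECs with fewer than 5000 detected genes EGR1 stood at 292 CPM (255 to 333), and in the 578 with 5000 or more at 114 CPM (110 to 117). FOS stood at 189.9 CPM and 147 CPM in the same cells. Among 21 lung ECs with 5000 or more genes EGR1 stood at 47.4 CPM (32.6 to 66.6). Lung ECs with fewer than 5000 genes had EGR1 at 59.7 CPM (57.6 to 61.9). The aorta level was above the lung level in both ranges, but the ranges did not match the libraries in depth. Median UMIs in the aorta and lung were 13158.5 and 9568 under 5000 genes, and 57054 and 28086 at 5000 or more. Over 4 equal groups of ECs ordered by UMIs, EGR1 ran from 144 CPM in the shallowest aorta ECs to 112 CPM in the deepest, and lay between 56.3 and 62.4 CPM in the lung. FOS stood at 129.5 CPM in the shallowest and 100.0 CPM in the deepest of these groups in the lung, and at 166 and 123 CPM in the aorta, where the group next to the shallowest had 169.7 CPM.

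Between the ECs given here for the lowest and highest mitochondrial shares, IER3 was lower and EGR1 higher at the highest share. Over the ranges between, IER3 in the lung fell and EGR1 in the aorta rose at each step. EGR1 in the lung and IER3 in the aorta did not run steadily. In lung ECs with 1 to 3% mitochondrial UMIs IER3 stood at 945 CPM and EGR1 at 58.5 CPM, and in those with 10 to 30% IER3 stood at 580.3 CPM and EGR1 at 88.2 CPM. In aorta ECs with 3 to 5% IER3 stood at 1005 CPM and EGR1 at 103 CPM, and in those with 10 to 30% at 817 and 169 CPM. Between them, IER3 stood at 825, 755 and 669 CPM in lung ECs with 3 to 5%, 5 to 7% and 7 to 10%. EGR1 stood at 111 and 126 CPM in aorta ECs with 5 to 7% and 7 to 10%. Out of order were EGR1 at 55.8 CPM in lung ECs with 3 to 5%, and IER3 at 784 CPM in aorta ECs with 7 to 10%. The highest range held 87 lung and 43 aorta ECs.

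Collagen-high cells had lower point values of all 7 measured members than the ECs of the same library, but for the rare ones in the aorta the direction turned under some alternatives. There the ratio of FOSB became 3.57 with cells of 5000 or more genes left out and 1.105 with cells weighted alike, and that of IER2 became 2.28 after thinning, all on few UMIs. In the lung EGR1 was 2.32-fold (1.90 to 2.87) lower, IER3 1.95-fold (1.85 to 2.05), FOS 1.79-fold (1.57 to 2.04) and ATF3 1.77-fold (1.60 to 1.96). In the aorta EGR1 was 4.31-fold (3.78 to 4.93) lower, ATF3 2.95-fold (2.69 to 3.25), IER3 2.34-fold (2.26 to 2.42) and FOS 2.16-fold (1.98 to 2.36). The ratios of collagen-high to EC level for FOSB were 0.77 (0.391 to 1.37) in the lung and 0.886 (0.576 to 1.32) in the aorta. For JUNB they were 0.598 (0.269 to 1.16) and 0.644 (0.386 to 1.02), so that the intervals of both genes held 1. IER2 had 0 UMIs in lung collagen-high cells, where the floor of 3 counts gave a level at least 1.73-fold lower by point value and 1.37-fold lower at the limit of the interval, and its interval held 1 in the aorta. With classes set by a gate on single cells or after thinning no fold could be given for IER2 in the lung.

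In the lung 1 of the 7 members was lower by 2-fold or more, EGR1, where 12% of the 11856 genes compared were. In the aorta 4 of the 7 were, EGR1, ATF3, IER3 and FOS, where 17.1% of 11880 genes were. Of these 4, FOS no longer passed after thinning, with a ratio of 0.612, nor IER3 with cells of 5000 or more genes left out, with a ratio of 0.551. No member was higher by 2-fold or more in the collagen-high cells, beside 10.9% of the genes in the lung and 9.91% in the aorta. The median ratio over the members was 0.565 in the lung and 0.463 in the aorta, beside median log2 differences of 0.01 and -0.03 over all genes compared. The lung count was near the limit and came to 3 where the 5% of cells with the most UMIs were left out and to 5 after thinning. In the larger lung collagen-high cluster alone, of 247 cells, EGR1 stood at 29.8 CPM, and 0 members passed 2-fold. In the smaller one, of 90 cells, EGR1 stood at 13.8 CPM, IER3 at 306 CPM and ATF3 at 121 CPM. The aorta collagen-high clusters of 121 and 18 cells had EGR1 at 29.8 and 11.3 CPM and IER3 at 376 and 504 CPM.

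**Figure D2:**
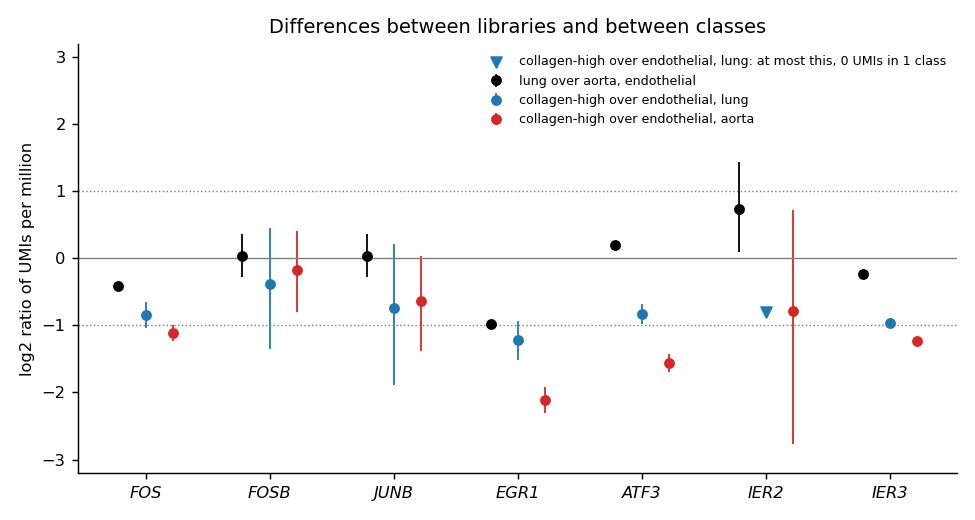
Log2 ratio of CPM for each member, for lung over aorta ECs and for collagen-high cells over ECs in each library, with exact 95% intervals of counting error. Dotted lines mark 2-fold and the triangle is an upper bound from 0 UMIs. In the aorta EGR1, ATF3, IER3 and FOS lie beyond the lower line and in the lung EGR1 does.

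Between the collagen-high cells of lung and aorta, ATF3 alone among the captured members had an interval that left out 1. Lung over aorta, EGR1 had a ratio of 0.938 (0.735 to 1.19), FOS of 0.905 (0.776 to 1.05) and IER3 of 1.02 (0.963 to 1.09), and FOSB and JUNB had ratios of 0.893 (0.416 to 1.80) and 0.957 (0.386 to 2.18). ATF3 was 1.91-fold (1.67 to 2.19) higher in the lung collagen-high cells. None of the 6 members compared passed 2-fold there, beside 13.4% of 11687 genes in either direction.

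The lung cluster called immune-like also kept 10 of 10 endothelial markers, so its levels may be those of mixed cells. FOS at 100.1 CPM (81.2 to 122) and EGR1 at 55.7 CPM (41.9 to 72.7) were at levels whose intervals overlapped those of lung ECs. ATF3 was 3.14-fold (2.42 to 4.15) lower at 58.8 CPM, and IER3 was 2.36-fold (2.12 to 2.65) lower at 331 CPM. FOSB, JUNB and IER2 had 1 UMI each among these 92 cells, too few for a direction. By point value 4 of the 7 members were lower by 2-fold or more, beside 4.86% of 12602 genes. For 2 of them, ATF3 and IER3, the interval left out 1, and the other 2, FOSB and JUNB, rested on 1 UMI each. PECAM1 was at 1148 CPM in these cells and was seen in 87.0% of them. Of the immune markers, PTPRC was seen in 18.5%, LYZ in 17.4% and TYROBP in 19.6%. LAPTM5 was seen in 88.0%, but also in 94.0% of lung ECs. Whether ECs in this class or EC RNA contributed to these values was not tested.

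FOS, EGR1, ATF3 and IER3 each differed between EC clusters of a library by a smaller ratio than between ECs and collagen-high cells. Lung ECs fell into 7 clusters and aorta ECs into 4. FOS ran from 90.7 CPM in lung cluster 4 to 141 CPM in lung cluster 2, a 1.56-fold range. Cluster 4 was led by TOP2A and UBE2C of mitosis, and cluster 2 by MGP, SLPI, CFD and CRYAB. EGR1 ran from 50.3 CPM in cluster 1, led by CDC20 and CCNB1, to 74.9 CPM in cluster 2. ATF3 ran from 151 CPM in cluster 1 to 217 CPM in cluster 2. Cluster 2 thus held the highest point value of these 3 transcription factor genes. Its interval overlapped that of cluster 0 (132 CPM) for FOS, those of clusters 5 and 8 (69.05 and 62.2 CPM) for EGR1 and those of clusters 0 and 5 (203 and 215 CPM) for ATF3.

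In the aorta the cluster led by CXCL10, CCL5, SLPI and CFD, cluster 0, held the highest FOS, EGR1 and ATF3, at 172, 143 and 211 CPM. EGR1 was lowest at 83.2 CPM and ATF3 at 95.4 CPM in cluster 2, led by ASPM, CDC20 and CCNB1, ranges of 1.72-fold and 2.22-fold. FOS was lowest at 127 CPM in cluster 1, led by histone genes. For EGR1 and ATF3 the interval of cluster 0 lay above those of the other 3 EC clusters. FOS in cluster 4, led by FOLR1, IL6 and SELP, was at 171 CPM, next to cluster 0 and with an overlapping interval.

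IER3 had another order. It was highest in the clusters led by histone genes of S phase, at 1199 CPM (1170 to 1228) in lung cluster 5 and 1123 CPM (1103 to 1143) in aorta cluster 1. It was lowest in the clusters led by CDC20 and CCNB1, at 672 CPM in lung cluster 1 and 723 CPM in aorta cluster 2. Lung cluster 2, where FOS, EGR1 and ATF3 were highest, had IER3 at 675.5 CPM, next to the lowest and overlapping it. The median mitochondrial share was 6.35% in lung cluster 2 and 4.32% in lung cluster 5, and 7.24% in aorta cluster 0 and 5.61% in aorta cluster 1. Its part in the result was not tested.

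Of the rare members FOSB had its highest point values where FOS did, in lung cluster 2 at 6.55 CPM (4.96 to 8.48) and in aorta cluster 0 at 4.96 CPM (3.81 to 6.35). In the lung the FOSB intervals of the highest and lowest clusters overlapped. JUNB ran from 1.80 CPM in lung cluster 4 to 6.27 CPM in lung cluster 8, led by interferon genes such as RSAD2, without overlap of the intervals. IER2 lay between 0.804 and 2.04 CPM over the lung EC clusters, with overlapping intervals.

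**Figure D3:**
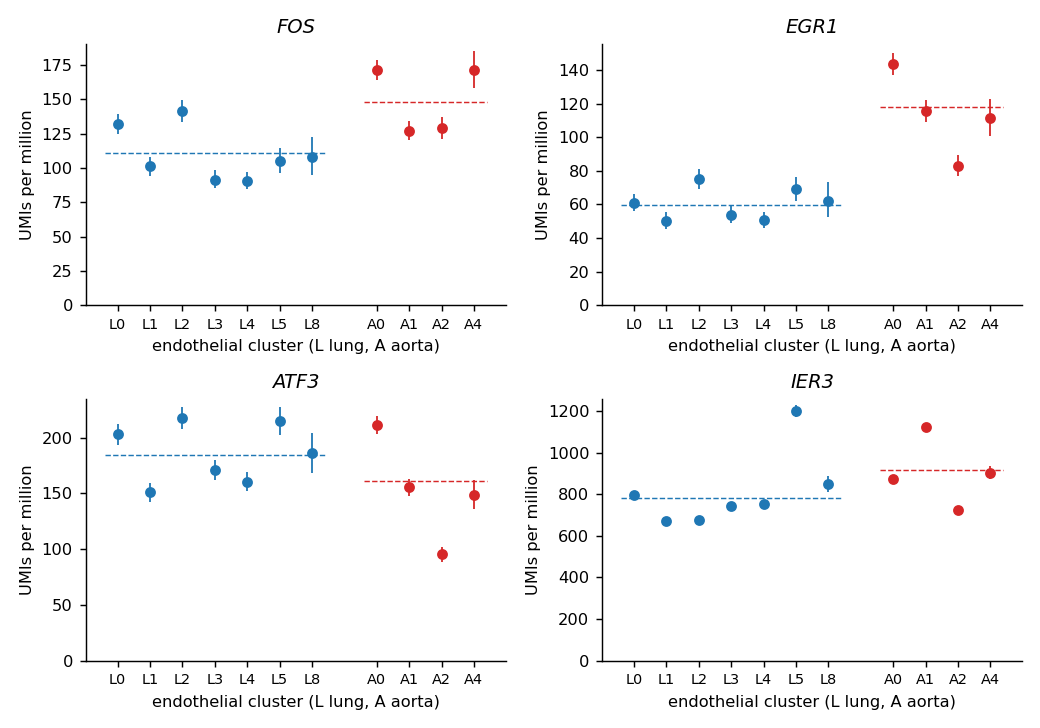
Level of FOS, EGR1, ATF3 and IER3 in each EC cluster, in CPM with exact Poisson 95% intervals, for lung (L, blue) and aorta (A, red). Dashed lines are the levels of all ECs of the library. FOS, EGR1 and ATF3 are highest in clusters L2 and A0, and IER3 in L5 and A1.

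The next question was whether single cells held several members together. Counts of FOS, EGR1, ATF3 and IER3 had a variance over thinned ECs above their mean, where counting alone gives a ratio of 1. The ratio of variance to mean was 1.41 for FOS, 1.25 for EGR1, 1.48 for ATF3 and 1.98 for IER3 in the lung, beside a median of 1.03 over genes with at least 0.1 UMIs per cell. In the aorta these ratios were 1.53, 1.82, 2.43 and 2.30, beside a median of 1.06. For FOSB and JUNB they were between 0.984 and 1.01. The most EGR1 UMIs in 1 thinned cell were 6 in the lung and 11 in the aorta, and the most ATF3 UMIs were 9 and 16.

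The 5% of cells with the most UMIs of a gene held 36.8% of all EGR1 UMIs in lung ECs and 29.7% in aorta ECs. They held 27.8% and 27.0% of the FOS UMIs, 22.4% and 28.5% of the ATF3 UMIs, and 14.2% and 14.6% of the IER3 UMIs. These shares depend on the mean count of a gene, which was 0.311 for EGR1 and 4.04 for IER3 in thinned lung ECs. Without thinning, FOS was seen in 89.1%, EGR1 in 85.3% and ATF3 in 91.6% of aorta ECs. How many ECs held a gene can therefore not be read from these shares.

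Of 4833 thinned lung ECs, 36.3% (34.96 to 37.7) had a UMI of 3 or more members, beside 34.5% from the product of the single shares. Of 629 thinned aorta ECs, 43.7% (39.8 to 47.7) did, beside 42.5%. Cells with 4 or more members made up 9.46% (8.65 to 10.3) in the lung, beside 6.36% from the product, and 14.0% (11.4 to 16.9) in the aorta, beside 9.90%. Cells with 0 members made up 2.36% in the lung, beside 1.26%, and 1.91% in the aorta, beside 0.808%. Cells with 1 member made up 24.3% in the lung, beside 21.2%, and 20.5% in the aorta, beside 17.1%. The point values thus stood above the product in cells with 0, 1 and 4 or more members.

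In collagen-high cells 14.2% of 316 lung cells and 11.6% of 138 aorta cells had 3 or more members, beside 11.09% and 9.91% from the products. Both intervals, 10.6 to 18.6 in the lung and 6.77 to 18.1 in the aorta, held the product.

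**Figure D4:**
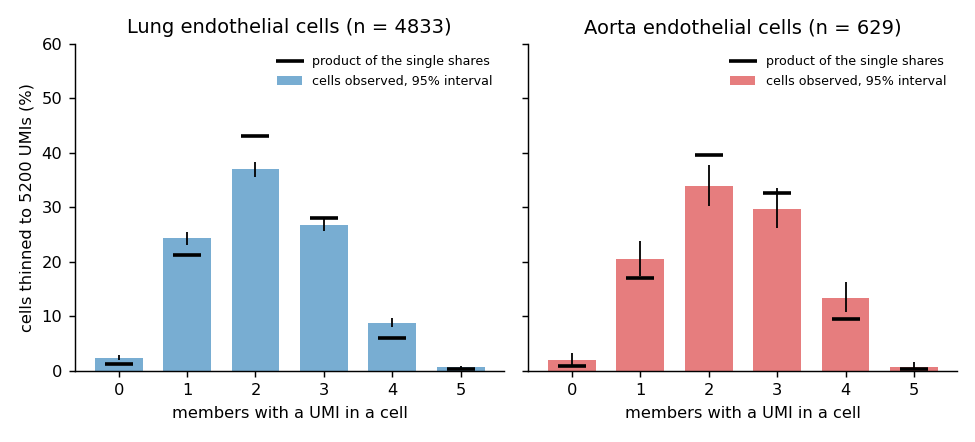
Share of ECs, each thinned to 5200 UMIs, with a UMI of 0 to 5 members, for lung and aorta. Bars are observed shares with exact binomial 95% intervals, and black marks are the shares that the product of the single members' shares gives. The bars for 0, 1 and 4 members stand above the marks and the bar for 2 members below it.

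In ECs, FOS, EGR1 and ATF3 occurred together in pairs more often than the product of their shares. FOS and ATF3 were together in 1199 lung ECs, where the product gave 1047, and in 153 aorta ECs, where it gave 138. ATF3 was seen in 62.6% of lung ECs with FOS and 49.5% of those without it. EGR1 and ATF3 were together in 745 lung ECs beside 644, and in 149 aorta ECs beside 127. FOS and EGR1 were together in 556 lung ECs beside 466, and in 139 aorta ECs beside 117. In the aorta EGR1 was seen in 49.3% of ECs with FOS and 35.2% of those without. FOS and IER3 were together in 268 aorta ECs, where the product gave 267.7. FOS and FOSB were together in 63 lung ECs beside 40.8.

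Correlations across cells were weak, and cells share their library and their medium. Over the 4833 lung ECs Pearson's r on log counts was 0.154 for FOS and ATF3, 0.115 for EGR1 and ATF3, 0.107 for FOS and EGR1 and 0.129 for ATF3 and IER3. Over the 629 aorta ECs these were 0.137, 0.204, 0.151 and 0.101. FOS and IER3 had r of 0.0607 in the lung and -0.0201 in the aorta. The mean r over the 6 pairs of the 4 captured members was 0.107 in the lung and 0.108 in the aorta. Over all 21 pairs it was 0.0456 and 0.0419, and 0.0435 and 0.0421 with each cluster centred on its own mean. The mean r over all pairs of the 5340 genes seen in at least 10% of lung ECs was 0.000759, with a 99th percentile of 0.0459, and the 99th percentile in the aorta was 0.112.

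Beyond the list, 75 related response genes were measured, listed by family, and 70 of them passed the level limit between the ECs. There 0 of them were higher in the lung by 2-fold or more, beside 2.26% of all genes, and 3 were lower by 2-fold or more, beside 6.55%. These 3 were KLF2, a flow-responsive factor, at 17.0 CPM in lung and 34.3 CPM in aorta ECs, SPRY4, a feedback inhibitor of receptor kinases, at 1.96 and 4.68 CPM, and BTG2, an antiproliferative gene, at 60.6 and 189 CPM. KLF2 and SPRY4 were named after their values were seen. BTG2 was 3.13-fold (3.00 to 3.27) higher in aorta ECs. CEBPB was 1.79-fold and SGK1 1.74-fold higher there. ATF4, the factor of the integrated stress response, was 1.39-fold higher in lung ECs, HSP90AB1, a chaperone, 1.31-fold and HES1 1.19-fold.

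Not all response genes were lower in collagen-high cells. Of 7 other AP-1 and ATF genes compared, 2 were higher by 2-fold or more and 0 lower in the lung, and 3 were higher and 1 lower in the aorta. Over all genes compared, 10.9% were higher and 12% lower in the lung, and 9.91% higher and 17.1% lower in the aorta. Their median ratio, collagen-high over EC, was 1.496 in the lung and 1.81 in the aorta. FOSL1, an AP-1 subunit like FOS, stood at 52.3 CPM in lung ECs and 96.9 CPM in lung collagen-high cells, and at 68.5 and 180.0 CPM in the aorta, where it was 2.62-fold (2.46 to 2.79) higher in the collagen-high cells. FOS and FOSL1 therefore had opposite orders of the classes in both libraries.

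Among 12 feedback phosphatases and mRNA decay factors, 4 were higher by 2-fold or more and 2 lower in the collagen-high cells of each library, where over all genes 10.9% and 9.91% were higher and 12% and 17.1% lower in the lung and aorta. ZFP36L2, an mRNA decay factor, was 2.63-fold (2.38 to 2.91) higher in the lung and 3.92-fold (3.69 to 4.16) in the aorta. DUSP1, a phosphatase that switches off MAP kinases, stood at 129 CPM in lung ECs and 278 CPM in lung collagen-high cells, 2.15-fold (2.02 to 2.30) higher, and at 158 and 252 CPM in the aorta. TNFAIP3, an inhibitor of NF-kB, stood at 114 and 27.9 CPM, a ratio of 0.245 (0.201 to 0.296) in the lung, and had a ratio of 0.521 (0.472 to 0.574) in the aorta.

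The 20 other primary response genes gave 1 higher and 4 lower by 2-fold or more in collagen-high cells of each library, beside the same shares over all genes, so that the 4 lower in the aorta were near the 17.1% of all genes there. SGK1, a serum-induced kinase, had a ratio of 0.288 in the lung and 0.084 in the aorta. CTGF, a secreted matricellular protein, had a ratio of 0.342 and 0.147. BTG2 had a ratio of 0.375 (0.345 to 0.407) in the aorta. IER5, related to IER2, was 2.89-fold (2.61 to 3.202) higher in aorta collagen-high cells, and GADD45A, a growth arrest gene, stood at 97.2 CPM in lung ECs and 189 CPM in lung collagen-high cells.

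The 11 upstream kinases and factors had a median ratio of 1.00 in the lung and 0.99 in the aorta. Of 13 heat shock genes compared in the lung, 1 was lower by 2-fold or more, HSP70.2 at 48.8 CPM in ECs and 23.1 CPM in collagen-high cells, named after its value was seen and a gene with near-identical copies that may share reads. In the aorta 0 of 12 passed 2-fold, and the median ratio was 1.10. The 4 KLF genes had median ratios of 1.25 and 1.51, and the 6 other EGR and nuclear receptor genes, of which 3 and 4 passed the level limit, 1.56 and 1.24. EGR2, EGR3 and EGR4 were under 1 CPM in the ECs of both libraries, so EGR1 was the EGR gene mainly captured there.

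**Figure D5:**
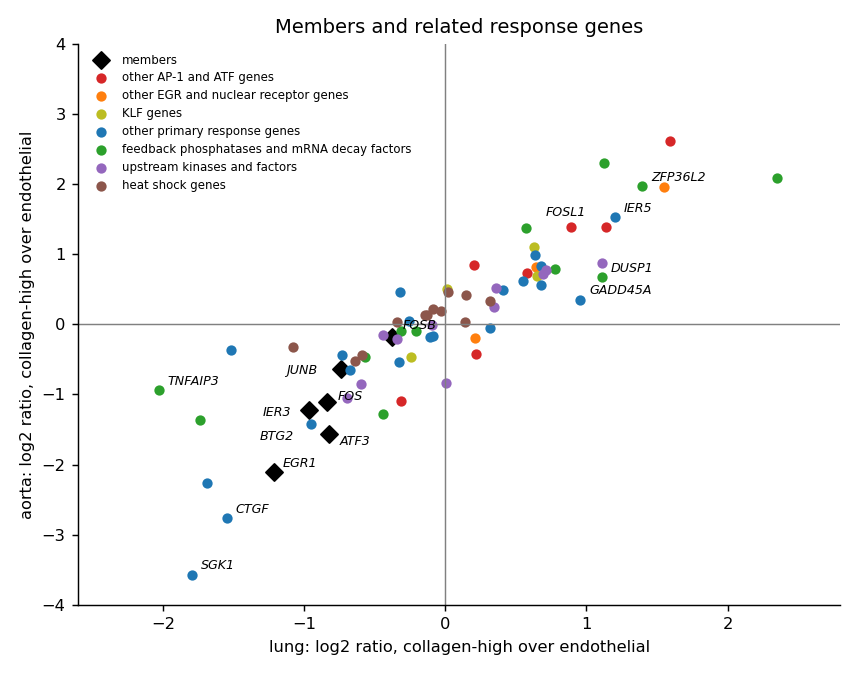
Log2 ratio of collagen-high over EC level in the lung (x axis) and aorta (y axis) for the members (diamonds) and related response genes (circles, coloured by list) with at least 0.5 CPM on average and at least 1 UMI in each class. The 6 members shown lie at the lower left, while FOSL1, DUSP1 and ZFP36L2 lie in the upper right.

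Genes whose counts followed the members across ECs were sought by their correlation with the mean scaled count of the 7 members. Each member weighed alike in it, also FOSB, JUNB and IER2, seen in only 8, 11 and 6 of 629 thinned aorta ECs. In lung ECs the 10 highest outside the lists included CXCL2, NFKBIZ, GAPDH, HERPUD1, ENSSSCG00000003079, SOD2, PTGS2, ANKRD1 and NDFIP1, with r from 0.168 for CXCL2 and 0.139 for NFKBIZ down to 0.0864. In aorta ECs they were FTL, NFKBIZ, PLK2, TTF2, TP53INP1, SORT1, PTGS2, SCAF8, RCAN3 and TNKS2, with r from 0.177 for FTL and 0.172 for NFKBIZ down to 0.141. NFKBIZ, an inducible regulator of NF-kB targets, and PTGS2, an inducible prostaglandin synthase, were in both sets of 10. Both had positive r with each of FOS, EGR1, ATF3 and IER3 in both libraries. CXCL2, a chemokine, was seen in 93.0% of the lung ECs, with r of 0.252 with IER3 and 0.0742 with FOS. ANKRD1 had r of 0.223 with IER3 and -0.0596 with FOS in lung ECs. FTL had r of -0.0208 with IER3 and 0.184 with FOS in aorta ECs. A place among the 10 thus does not mean that a gene followed every member.

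Of the related genes seen in at least 10% of cells, BTG2 had an r of 0.131 in lung and 0.317 in aorta ECs, DUSP1 0.139 in both, NFKBIA 0.110 and 0.151, and CYR61 0.144 and 0.122. In aorta ECs CYR61 had r of 0.223 with IER3 and -0.0387 with FOS. The heat shock genes did not go one way. HSP90AA1 stood at -0.0481 and -0.0814, HSP90AB1 at -0.0490 and -0.0733 and HSPE1 at -0.0357 and -0.108, whereas HSPA5 stood at 0.0343 and 0.0517, and HSPB1 at 0.0538 in the lung and -0.0350 in the aorta. These values are weak, and all come from the same cells.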

How the data were processed

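The authors deposited UMI counts per gene and cell, made with Cell Ranger 3.0.2, per the labels, on Sscrofa11.1 with Ensembl gene models. The counts were not normalized and the study's limits on cells had not been applied. All members were matched by the symbol in the files. A cell was kept if over 200 genes were detected and its mitochondrial share (12 genes) was below 30%. The study's upper limit of 5000 genes was an alternative here, because it left 246 of 955 aorta cells and 5683 of 5709 lung cells. Each library was clustered with Seurat 5.3.0 in R 4.3.3 (log-normalized counts, 2000 variable genes without the members, related genes and markers, 20 principal components, resolution 1).

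A cluster was collagen-high if COL1A1 and COL1A2 were at 20 CPM or more and 2-fold above the rest of the library, immune-like with at least 3 immune markers raised likewise, and endothelial with most of its markers at 0.25 or more of the highest cluster. A cluster that met such a rule was left unnamed if its median UMI count was more than 3-fold below that of its library and no marker of the class was among its leading genes by fold. The names were rebuilt from markers and may differ from those of the study in the cells they hold. No doublet caller was used, and leaving out the 5% of cells with the most UMIs was an alternative. Other alternatives changed the mitochondrial limit, the resolution, the components, the class rule, the weighting of cells, the UMI total and the thinning. Levels from thinned cells and from the larger collagen-high cluster alone were added after seeing the data. Levels are summed UMIs per 1000000 (CPM) with exact Poisson intervals, shares have exact Clopper-Pearson intervals, and ratios have exact conditional intervals, all at 95% and for counting error only. A ratio against 0 UMIs used a floor of 3 counts per class. Genes compared had at least 0.5 CPM on average over the 2 classes. Python 3.11.15 with numpy 2.4.6, scipy 1.17.1 and pandas 2.3.3 was used, and the scripts were tested on simulated data. The members and lists were chosen with earlier results of these data known. All members were described. From the related lists those at 50 CPM or more in 1 class with the 3 largest ratios each way were named for lung against aorta ECs and for collagen-high cells against ECs. Gene positions and upstream sequences are from the RefSeq annotation of Sscrofa11.1, joined by symbol. The gene models counted may have other ends. One gene that the rule on likeness would name is not reported here.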

Additional observations from a re-analysis of the deposited data

Results flagged for a closer look

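HSP90AA1, a chaperone gene, had a ratio of collagen-high to EC level of 0.906 in the lung and 1.1 in the aorta, opposite directions in the 2 libraries. The difference was not tested, since each tissue had 1 library.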

How the results depend on the processing

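No paired analysis was possible because each tissue had 1 library. Of the alternatives for the medians, counts, shares and correlations, 100 values stayed within set limits and 22 moved further. The limit was the counting interval for shares, and 1.5 times for counts and correlations. For a median it was the interval of the member nearest to it, which for lung over aorta ECs was wide (0.824 to 1.29). With fewer than 5000 detected genes, clustering gave 159 aorta ECs, among them cells not called ECs in the main setting. There 2 members passed 2-fold between the ECs, and the aorta median ratio of collagen-high to EC level became 0.512. Over the 84 of these aorta ECs deep enough to be thinned, the share with 3 or more members was 50% and the mean r 0.195. In the same setting ATF3 and IER3 also turned direction between lung and aorta ECs, to ratios of 0.943 and 1.01. With classes set by a gate on single cells, 1 member passed 2-fold between the ECs and 3 between the lung classes, the aorta median was 0.373 and the aorta mean r 0.0967. The lung collagen-high median was 0.502 without the 5% of cells with the most UMIs, 0.506 with each cell weighted alike and 0.482 after thinning, where 3, 3 and 5 members passed 2-fold, and 0 did in the larger collagen-high cluster alone. Between the ECs 1 member passed with cells weighted alike and 2 after thinning. Resolution 1.5 gave an aorta mean r of 0.0754. Thinning to 2500 UMIs gave shares of 14.0% and 19.3% and mean r of 0.0262 and 0.0239 in the lung and aorta. The cause of these changes was not tested. Over all alternatives EGR1 was 1.95 to 3.82-fold higher in aorta than in lung ECs, and 1.998 to 2.82-fold lower in lung and 3.96 to 5.10-fold lower in aorta collagen-high cells than in ECs. FOSB, JUNB and IER2 rest on few UMIs, and depth limits any statement on them.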

Other observations

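Clusters left without a name also held the members. Lung cluster 6, of 283 cells, had FOS at 79.6 CPM, EGR1 at 73.3 CPM, ATF3 at 183 CPM and IER3 at 793 CPM. Aorta cluster 7, of 38 cells led by MEOX1, had FOS at 126.5 CPM, EGR1 at 158 CPM, ATF3 at 204 CPM and IER3 at 669 CPM. Aorta clusters 5 and 6, of 75 and 69 cells with median mitochondrial shares of 0.262% and 0.106%, had IER3 at 323 and 98.1 CPM and FOS at 19.3 and 15.8 CPM. Lung cluster 11, of 41 cells with a median mitochondrial share of 0.173%, had no FOS UMI and IER3 at 249 CPM.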
